A study of Arabidopsis thaliana with 6 samples.

Results

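The genes described are 42 Arabidopsis thaliana loci that encode the A-type, B-type and D-type cyclins, the cyclin-dependent kinases (CDKs) of the A and B classes, the CDK inhibitors of the KRP family with SIM and SMR1, the kinase WEE1 and the retinoblastoma-related protein RBR1. The rule names them by locus and uses no measured value, although earlier results of these data were known when the list was made. They are 42 of the genes in a series whose arrays carry 20310 genes with a probe set of their own. Of the 42 loci, 36 had such a probe set, 1 each. A further 4 loci were measured only through probe sets shared with another gene, and CYCD7;1 and KRP6 had no matched probe set. RNA was measured in whole seedlings of the wild-type ecotype Col-0, on 6 Affymetrix arrays with 1 sample each. The heat group held 3 samples that received 37 °C for 30 min under light. The control group held 3 samples left without heat treatment under light, and the plants of both groups had grown at 23 °C with 16 h of light and 8 h of darkness a day. The labelled age was 13, 14 and 15 days in heat arrays 1, 2 and 3 and 10, 11 and 12 days in control arrays 1, 2 and 3, so that labelled age and heat cannot be told apart by group means, whereas the series text gives 1 age for all seedlings.

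Cyclins are the regulatory subunits that switch on CDKs. D-type cyclins with CDKA;1 phosphorylate RBR1 and thereby free E2F factors at the entry into S phase, A-type cyclins act through S phase and G2, and B-type cyclins with the plant-specific CDKB kinases act at mitosis. KRP and SIM/SMR proteins bind and inhibit these kinases, and in plants their activity often moves a cell out of mitotic cycles and into endoreduplication, in which DNA is copied without division. WEE1 restrains CDKs when DNA replication is disturbed. In a seedling such genes act chiefly in the meristems, in young leaves and in the stomatal lineage, which are a small part of the tissue extracted here.

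The values are log2 levels made by the authors with RMA, so a difference of 1 is a 2-fold change. The arrays gave medians of 4.39 to 4.43 in the heat group and 4.49 to 4.53 in the control group. The precision of every comparison is limited by the 3 arrays in each group and by the spread between them. Heat arrays differed from each other by a standard deviation of 0.187 to 0.277 over all probe sets, and control arrays by 0.363 to 0.55. The treatment was visible in HSP70B, a cytosolic heat shock chaperone, at 13.65, 13.70 and 13.67 in heat arrays 1, 2 and 3, against 4.62, 4.61 and 4.55 in control arrays 1, 2 and 3. Control array 3 stood apart: HSFA2, the heat-induced transcription factor, lay at 7.30 in it, against 3.69 and 3.72 in control arrays 1 and 2. Both measured leaf markers were at high levels. LHCA1, a light-harvesting protein of photosystem I, lay at 13.22 to 13.45 in heat and 13.44 to 13.55 in control arrays. PSBO1, a subunit of photosystem II, lay at 12.90 to 13.05 in heat and 13.42 to 13.46 in control arrays and fell by 0.48 ± 0.08 (limma adjusted p = 0.0065), a call lost with the labelled age as a covariate (adjusted p = 0.262). Flower and seed markers lay between 2.98 and 3.64 on all arrays, near the lower end of the scale.

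For 30 of the 36 measured genes no change after 30 min at 37 °C passed the test. At an adjusted p under 0.05 (limma, Benjamini-Hochberg over 22746 probe sets), 5 of the 36 genes fell and 1 rose. The genes that fell were the D-type cyclins CYCD3;1 and CYCD3;2, the A-type cyclins CYCA1;1 and CYCA2;3, and the inhibitor gene SMR1. The gene that rose was KRP7, another inhibitor, which lay at -0.03 when the arrays were instead scaled to the array's Bacillus control probe sets. Over all tested probe sets 11.5% fell and 7.82% rose by the same rule, so the 13.9% of members that fell and the 2.78% that rose are near the background. With a minimum of 2-fold, SMR1 alone remained, beside 3.98% of all probe sets that fell and 2.8% that rose by as much.

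The median change of the 36 genes was -0.10 (log2, heat minus control), beside 0.02 for all tested probe sets. All heat arrays lay below all control arrays for 12 of the 36 genes and above them for 3. Over all probe sets these shares were 20.0% and 18.8%, and among the 36 genes 33.3% and 8.33%. No test of this difference was made. Because whole seedlings were extracted, fewer dividing cells and less RNA of a gene per cell cannot be told apart in any of these values.

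The split depended on how the arrays were scaled and on which arrays were used. With the array medians centred, which moved the median of all probe sets to 0.12, 4 of the 36 genes fell and 3 rose, namely KRP7, the D-type cyclin CYCD1;1 (0.36, adjusted p = 0.0351) and WEE1 (0.38, adjusted p = 0.0402). In that fit 9.35% of all probe sets fell and 13.4% rose, against 11.1% and 8.33% of the 36 genes. A second quantile normalization gave 4 falls and 2 rises, of KRP7 and CYCD1;1 (0.39, adjusted p = 0.029), while 10.4% of all probe sets fell and 9.43% rose. Scaled to the Bacillus control probe sets, which moved the median of all probe sets to -0.49, 23 of the 36 genes fell and 0 rose. On that scale 42.5% of all probe sets fell and 2.83% rose. With the labelled age as a covariate 0 of the 36 genes passed in either direction (5 had an unadjusted p under 0.05), while 0.998% of all probe sets fell and 1.58% rose. The share of all probe sets with an unadjusted p under 0.05 in that fit was not computed. Without heat array 3, 1 gene fell, CYCD3;2, as did 6.75% of all probe sets. CYCD3;2 and SMR1 fell without heat array 1, heat array 2 or control array 1, where 6.48%, 8.75% and 10.8% of all probe sets fell. Without control array 2, CYCD3;2 and CYCD3;3 fell, with 8.3% of all probe sets. KRP7 did not pass without heat array 1, heat array 2 or control array 2.

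**Figure D1:**
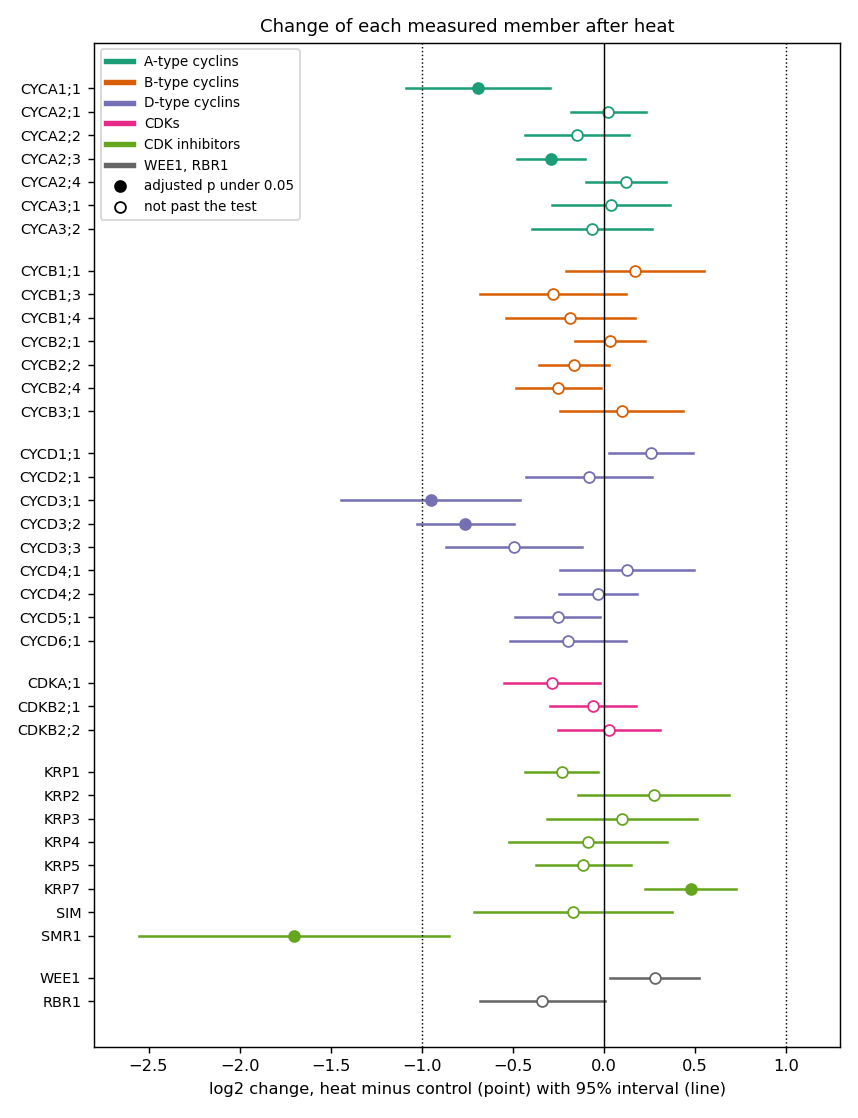
Log2 change after heat (heat minus control, horizontal axis) with its 95% interval for each of the 36 measured genes, grouped by class; filled points passed the test, open points did not, and dotted lines mark a 2-fold change either way. SMR1 lies farthest from 0 at -1.70, followed by CYCD3;1 at -0.95, and 32 of the 36 points lie within 0.5 of 0.

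D-type cyclins couple cell division to hormones and sugar, and in Arabidopsis the CYCD3 genes keep leaf cells in mitotic cycles and respond to cytokinin. CYCD3;1 (AT4G34160) had levels of 5.89, 5.86 and 5.82 in heat arrays 1, 2 and 3, against 6.95, 7.15 and 6.32 in control arrays 1, 2 and 3. The heat values lay close together and below all control values, of which control array 3 was the lowest. The gene fell by 0.95 ± 0.21 (log2, ± SE, n = 3 each; limma adjusted p = 0.0216), and averaged 5.86 ± 0.03 in heat and 6.81 ± 0.43 in control seedlings (SD). With control array 3 removed it stayed below the threshold of 0.05, and with any other single array removed it did not (adjusted p up to 0.0795). CYCD3;1 was also not called with the labelled age as a covariate (-0.43, adjusted p = 0.694) or with its own spread in place of the moderated one (adjusted p = 0.106).

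CYCD3;2 (AT5G67260) had levels of 7.16, 7.06 and 7.20 in the heat arrays, against 7.90, 8.09 and 7.72 in the control arrays. The groups did not overlap, and the lowest control value exceeded the highest heat value by more than the range of either heat or control values. It fell by 0.76 ± 0.11 (limma adjusted p = 0.00472), or to 0.59 of the control level. This call held whichever of the 6 arrays was dropped (highest adjusted p = 0.0251) and was lost only with the labelled age as a covariate (-0.66, adjusted p = 0.275) among the alternatives tried. CYCD3;3 (AT3G50070), the remaining gene of the subfamily, had 5.34, 4.95 and 5.12 in heat arrays against 5.83, 5.36 and 5.70 in control arrays. Its groups did not overlap, but heat array 1 lay only just under control array 2, and the change of -0.49 ± 0.16 did not pass (limma adjusted p = 0.0739). It passed without control array 2 (-0.63, adjusted p = 0.0404), with a block for the replicate number (adjusted p = 0.026) and on the Bacillus scale (-0.996, adjusted p = 0.000328). The Bacillus scale, however, made 42.5% of all probe sets fall.

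**Figure D2:**
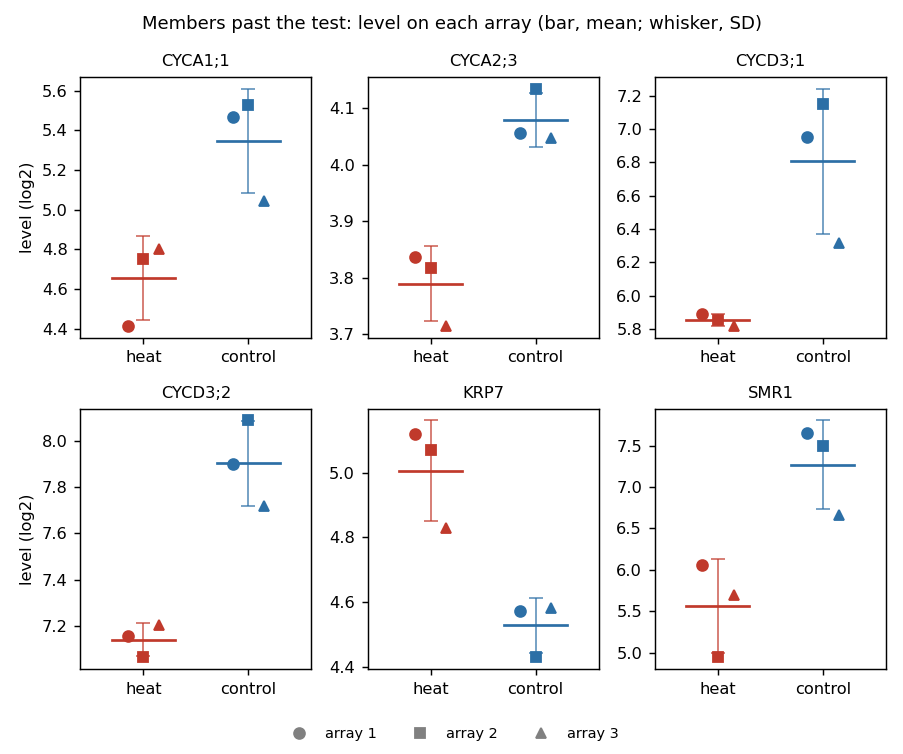
Level (log2) on each array for the 6 genes that passed the test, heat left and control right, with a bar at the mean and a whisker of 1 SD (n = 3 each); symbols give the array number and each panel has its own vertical scale. The groups do not overlap in any panel, and control array 3 (triangle) is the control array nearest to the heat mean in all 6, though only just for CYCA2;3 and KRP7.

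The other D-type cyclins did not pass. Among them CYCD1;1 had the largest change, 0.26 ± 0.10 (limma adjusted p = 0.113), with heat levels of 4.73 to 4.86 above control levels of 4.36 to 4.60. CYCD5;1 differed by -0.25 (limma adjusted p = 0.128), with heat levels below control levels. CYCD4;2 changed least, at 4.19, 4.07 and 4.06 in heat arrays against 4.14, 4.25 and 4.03 in control arrays, a difference of -0.03 with a 95% interval of -0.25 to 0.18. CYCD2;1 (-0.08), CYCD4;1 (0.13) and CYCD6;1 (-0.20) also had overlapping groups. CYCD6;1 is known as a direct target of the root patterning factors SHR and SCR in the division that separates cortex from endodermis. Levels of CYCD6;1 were 3.21 to 3.72, near the lower end of the scale, where a change is understated. SCR itself fell by 1.76 ± 0.13 (limma adjusted p = 0.000287), at 4.36, 4.22 and 4.36 in heat arrays against 6.24, 6.18 and 5.79 in control arrays. The SCR call was lost with the age covariate (limma adjusted p = 0.0609). SHR differed by 0.03 (limma adjusted p = 0.896).

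A-type cyclins bind both CDK classes. CYCA1;1 (AT1G44110) had 4.41, 4.75 and 4.80 in heat arrays, against 5.47, 5.53 and 5.04 in control arrays. All heat values lay below all control values, and control array 3 was again the lowest control. The gene fell by 0.69 ± 0.17 (limma adjusted p = 0.0308). Dropping any single array but control array 3 ended the call (highest adjusted p = 0.0994), as did the age covariate (adjusted p = 0.471), its own spread (adjusted p = 0.118) and a second quantile normalization (adjusted p = 0.0617). CYCA2;3 (AT1G15570), which together with CDKB1;1 restrains endoreduplication, had 3.84, 3.82 and 3.72 in heat arrays against 4.06, 4.13 and 4.05 in control arrays. Its values formed narrow groups below the median of every array, 0.29 ± 0.08 apart (limma adjusted p = 0.044). That call ended whichever of the 6 arrays was dropped (highest adjusted p = 0.142), and after centring of the array medians the change of -0.19 did not pass (adjusted p = 0.1205). It was lost as well with a trended prior (adjusted p = 0.0553), with the dimmest probe sets left out (adjusted p = 0.0626) and with the age covariate (adjusted p = 0.688).

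The other 5 A-type cyclins, CYCA2;1, CYCA2;2, CYCA2;4, CYCA3;1 and CYCA3;2, had overlapping groups and changes from -0.15 to 0.12. CYCA2;2 had the largest of these, with 4.48, 4.41 and 4.12 in heat arrays against 4.42, 4.41 and 4.62 in control arrays (limma adjusted p = 0.457). CYCA2;1 had the smallest, with 3.62, 3.53 and 3.57 in heat arrays against 3.42, 3.64 and 3.58 in control arrays. Its change of 0.03 had a 95% interval of -0.18 to 0.23.

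B-type cyclins, the mitotic class, gave no call among 7 measured genes, of which 1, CYCB2;4, had an unadjusted p under 0.05 (limma). An unadjusted p this low was found in 32.3% of all tested probe sets and in 36.1% of the measured members. The changes of the 7 B-type genes ran from -0.28 in CYCB1;3 to 0.17 in CYCB1;1, with a median of -0.16. CYCB1;1 (AT4G37490), widely used as a marker of cells in G2 and mitosis, had 5.09, 4.54 and 4.68 in heat arrays against 4.68, 4.68 and 4.43 in control arrays. Heat array 1 was the highest value and the remaining heat values lay among the control values. The 95% interval of its change ran from -0.21 to 0.55 (limma adjusted p = 0.509). CYCB1;3 had 4.73, 4.31 and 4.14 in heat arrays against 4.83, 4.68 and 4.50 in control arrays, with overlapping groups (limma adjusted p = 0.312). CYCB2;1 had 4.02, 4.04 and 4.07 in heat arrays against 4.06, 4.07 and 3.91 in control arrays, a difference of 0.03 with an interval of -0.16 to 0.22. CYCB2;2 (-0.16) and CYCB2;4 (-0.25) lay lower in every heat array than in any control array without passing the test. CYCB1;4 (-0.18) and CYCB3;1 (0.10) had overlapping groups. The probe sets shared by CYCB1;2 with CYCB1;5, and by CYCB2;3 with AT1G20590, differed by 0.06 and -0.18 and did not pass.

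None of the 3 measured kinase genes passed at an adjusted p under 0.05 (limma), and 1 of them, CDKA;1, had an unadjusted p under 0.05. The latter was so for 32.3% of all tested probe sets. CDKA;1 (AT3G48750), the CDK that works throughout the cycle, had 7.10, 7.23 and 6.88 in heat arrays against 7.27, 7.43 and 7.36 in control arrays. Each heat value was below each control value, with heat array 2 close under control array 1. The change of -0.28 ± 0.11 did not pass (limma adjusted p = 0.131). CDKB2;2, a mitotic kinase, had 4.91, 5.31 and 5.15 in heat arrays and 5.18, 5.02 and 5.08 in control arrays, a difference of 0.03 with an interval of -0.25 to 0.31. CDKB2;1 differed by -0.06 (limma adjusted p = 0.735). The probe set that CDKB1;1 and CDKB1;2 share lay higher in all heat arrays, at 5.07 to 5.27 against 4.86 to 5.01 in control arrays, and its change of 0.27 ± 0.09 did not pass (limma adjusted p = 0.0896).

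The inhibitor genes held the largest change. SMR1 (AT3G10525), also named LGO, encodes a SIAMESE-related CDK inhibitor that drives endoreduplication in the epidermis and gives rise to giant cells. Its levels were 6.06, 4.94 and 5.70 in heat arrays, against 7.66, 7.49 and 6.66 in control arrays. Both groups were scattered, with the lowest value in heat array 2, and they did not overlap. SMR1 averaged 5.57 ± 0.57 in heat and 7.27 ± 0.53 in control seedlings (SD), and fell by 1.70 ± 0.36 (limma adjusted p = 0.019), which is to 0.307 of the control level. The 95% interval of the change ran from -2.55 to -0.85. The call was lost without heat array 3 (adjusted p = 0.0618) or control array 2 (adjusted p = 0.0684), with its own spread (adjusted p = 0.107), and with the age covariate, under which the change was -0.69 (adjusted p = 0.696).

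KRP7 (AT1G49620, named ICK5 in the RefSeq gene table) had 5.12, 5.07 and 4.83 in heat arrays, against 4.57, 4.43 and 4.58 in control arrays. All heat values exceeded all control values. KRP7 rose by 0.48 ± 0.10 (limma adjusted p = 0.0223), or to 1.39 times the control level. With the arrays scaled to the Bacillus control probe sets, KRP7 lay at -0.03 (adjusted p = 0.919). The call also ended without heat array 1, heat array 2 or control array 2 (highest adjusted p = 0.085), with its own spread (adjusted p = 0.0732) and with the age covariate (0.69, adjusted p = 0.202).

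The other KRP genes did not pass, and their changes ran from -0.23 in KRP1 to 0.28 in KRP2. KRP2 had 4.44, 4.12 and 3.84 in heat arrays against 3.87, 4.04 and 3.65 in control arrays, with overlapping groups (limma adjusted p = 0.331). KRP4 had 5.03, 4.996 and 4.78 in heat arrays against 5.24, 5.21 and 4.61 in control arrays, where control array 3 was the lowest of all 6 values. KRP3 (0.10) and KRP5 (-0.11) also overlapped between the groups. KRP1 lay lower in every heat array than in any control array, at 3.32 to 3.45 against 3.54 to 3.71 (limma adjusted p = 0.111). SIM (AT5G04470), the founding member of the SIAMESE family and required for single-celled trichomes, had 4.35, 4.28 and 4.35 in heat arrays against 5.04, 4.32 and 4.13 in control arrays. Its control values were spread over a wide range, from control array 3 to control array 1, and the change of -0.17 did not pass (limma adjusted p = 0.671).

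SMR5 (AT1G07500), a SIAMESE-related inhibitor known to be induced by oxidative stress and not among the 42 loci, had 7.93, 8.23 and 7.73 in heat arrays against 3.85, 3.77 and 4.06 in control arrays. SMR5 rose by 4.07 ± 0.15 (limma adjusted p = 1.05e-05) and passed under all 16 alternatives, with changes of 3.56 to 4.18. SMR4 overlapped between the groups, at 4.39 to 4.57 in heat and 3.90 to 4.76 in control arrays, and differed by 0.25 (limma adjusted p = 0.495). The difference in response between SMR1 and SMR5, which fell and rose, was not itself tested.

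**Figure D3:**
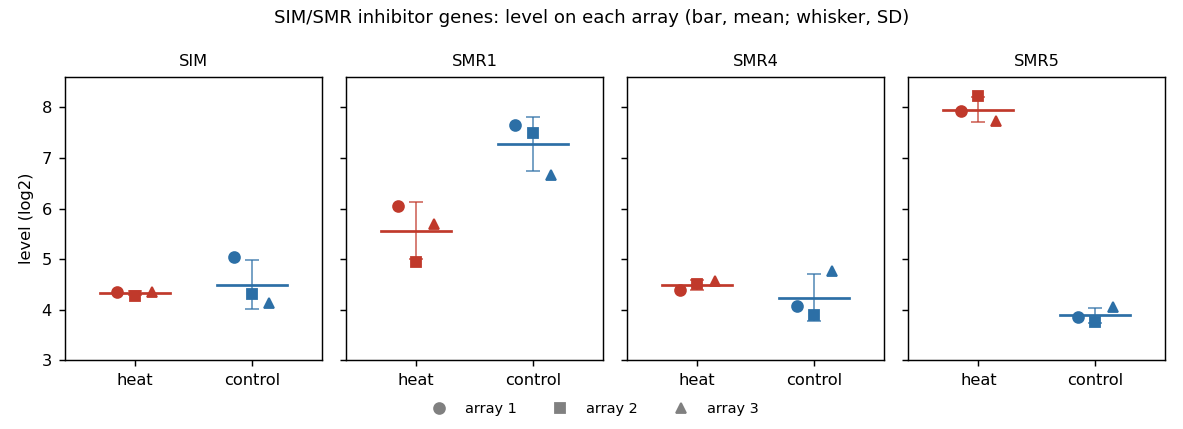
Level (log2, shared vertical scale) on each array for SIM and SMR1, which belong to the 42 loci, and for SMR4 and SMR5, heat left and control right, with a bar at the mean and a whisker of 1 SD (n = 3 each). SMR1 lies lower in heat, SMR5 averages 7.96 in heat and 3.89 in control seedlings, and the groups overlap for SIM and SMR4.

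WEE1 (AT1G02970) and RBR1 (AT3G12280) did not pass the test, and neither gene's groups overlapped. WEE1 had 4.08, 3.91 and 3.77 in heat arrays against 3.63, 3.73 and 3.57 in control arrays, a difference of 0.28 ± 0.10 (limma adjusted p = 0.113). RBR1 had 5.86, 5.96 and 5.43 in heat arrays, against 6.09, 6.08 and 6.09 in control arrays. The control values were nearly equal (SD 0.004), while the heat values were spread (SD 0.28) with heat array 3 the lowest. The difference of -0.34 ± 0.14 did not pass (limma adjusted p = 0.16).

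For the 30 genes that did not pass, the 95% intervals give the size of change left possible by the group-only fit on the deposited scale. They are not adjusted for the number of probe sets, and they do not cover the choice of scale or the labelled age. CYCD3;3 differed by -0.996 on the Bacillus scale and KRP2 by 0.89 with the age covariate, each outside its interval. All 30 intervals lay within a 2-fold change either way, from a lowest limit of -0.86 to a highest of 0.69. For 18 of the 30 the interval lay within 0.5 on the log2 scale, a 1.41-fold change. Among all 18354 probe sets that did not pass, 93.6% had intervals within 2-fold and 67.3% within 0.5. Of the 36 genes, 14 lay under the array median on all 6 arrays and 12 lay above it on all 6. The part of background signal in the low values was not measured, and RMA levels near the lower end of the scale understate a change.

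Control array 3 was the control array nearest to the heat mean for all 6 genes that passed, as it was for 38.8% of all called probe sets and for 14 of the 36 genes. For KRP7 (4.5825 against 4.5727) and CYCA2;3 (4.0469 against 4.0564) control array 3 was nearly tied with control array 1. In control array 3, HSFA2 and HSP101 were above the other control arrays (HSP101 at 8.22, against 4.82 and 4.87). Whether the lower control values of CYCD3;1, CYCA1;1 and SMR1 in that array go with this difference was not tested. Without control array 3, 4 of the 36 genes fell and 1 rose, beside 12.3% and 6.44% of all probe sets. In that fit CYCD3;1 differed by -1.195 and SMR1 by -2.01, both called.

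Other genes of the cell cycle were read from 6 lists written from general knowledge, of which 73 of 87 genes had a probe set of their own. Of these, 5 rose and 3 fell (6.85% and 4.11%), beside 7.82% and 11.5% of all probe sets, and their median change was 0.01. E2F, DP and MYB3R factors, which time S phase and mitotic genes, gave no call among 10 genes at an adjusted p under 0.05 (limma). An unadjusted p under 0.05 was found for 2 of the 10, and for 32.3% of all tested probe sets. The largest change among the 10 genes was that of DPB, a partner of E2F proteins, at -0.36 ± 0.11 (limma adjusted p = 0.0658).

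DNA replication genes gave 3 rises and no fall among 16, beside 7.82% and 11.5% of all probe sets, with a median of 0.23. All heat arrays lay above all control arrays for 6 of the 16 and below them for 4, beside 18.8% and 20.0% of all probe sets. The 4 were MCM4 (-0.36), CDT1A (-0.33), CDC6A (-0.29) and CDC45 (-0.22), and none passed (lowest limma adjusted p = 0.0944). PCNA1 (AT1G07370) and PCNA2 (AT2G29570) encode the sliding clamp of DNA polymerases. PCNA1 had 7.85, 7.91 and 7.60 in heat arrays against 6.95, 6.95 and 6.51 in control arrays, and rose by 0.98 ± 0.15 (limma adjusted p = 0.00581). PCNA2 had 7.69, 7.65 and 7.81 in heat arrays against 6.97, 6.68 and 6.91 in control arrays, and rose by 0.86 ± 0.10 (limma adjusted p = 0.00197). The PCNA1 call was lost with its own spread (adjusted p = 0.0513), and the PCNA2 call with the age covariate (adjusted p = 0.165). On the Bacillus scale, PCNA1 differed by 0.48 (adjusted p = 0.0762) and PCNA2 by 0.36 (adjusted p = 0.143). ETG1, a replisome factor, had 5.90, 5.72 and 5.76 in heat arrays against 5.45, 5.40 and 5.34 in control arrays, and rose by 0.39 ± 0.08 (limma adjusted p = 0.0212), and lay at -0.11 after that scaling (adjusted p = 0.644). The ETG1 call also ended without heat array 1, heat array 3, control array 2 or control array 3 (highest adjusted p = 0.0776), with a trended prior (adjusted p = 0.0703) and with the age covariate (adjusted p = 0.179).

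Of 14 genes of mitosis and cytokinesis, 1 fell, beside 11.5% of all probe sets. POK1, a kinesin that orients the division plane, fell by 0.35 ± 0.09 (limma adjusted p = 0.043). Dropping any single array but heat array 2 ended that call (highest adjusted p = 0.132). POK1 also did not pass with the array medians centred (adjusted p = 0.0875) or with its own spread (adjusted p = 0.0867). The same held with a block for the replicate number (adjusted p = 0.0926) and with the age covariate (adjusted p = 0.543). The anaphase-promoting complex marks cyclins for degradation. Of 13 measured genes of the complex and its regulators, 1 rose and 1 fell, beside 7.82% and 11.5% of all probe sets. CCS52A1 (AT4G22910), an activator of the complex that promotes endoreduplication, had 3.76, 3.57 and 3.59 in heat arrays against 4.55, 4.42 and 4.18 in control arrays, and fell by 0.75 ± 0.12 (limma adjusted p = 0.00652). The CCS52A1 call was lost with the age covariate (-0.33, adjusted p = 0.468). OSD1, an inhibitor of the complex, rose by 0.43 ± 0.11 (limma adjusted p = 0.0405). Dropping any single array but control array 1 ended that call (highest adjusted p = 0.134), and on the Bacillus scale OSD1 differed by -0.07 (adjusted p = 0.769). OSD1 also did not pass with a trended prior (adjusted p = 0.064) or with its own spread (adjusted p = 0.1075). The same held with a block for the replicate number (adjusted p = 0.0558) and with the age covariate (adjusted p = 0.1504). Of 11 genes, namely other CDKs, CKS genes, CYCH;1 and MAT1, 1 fell, beside 11.5% of all probe sets. CDKE;1 (AT5G63610), the kinase of the Mediator complex, fell by 0.72 ± 0.11 (limma adjusted p = 0.00631). The CDKE;1 call was lost with the age covariate (-0.47, adjusted p = 0.403). In the list of further SMR and DNA damage genes SMR5 was the 1 call among 9, a rise, beside 7.82% of all probe sets. SOG1, the transcription factor of the DNA damage response, differed by -0.01 (limma adjusted p = 0.952).

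**Figure D4:**
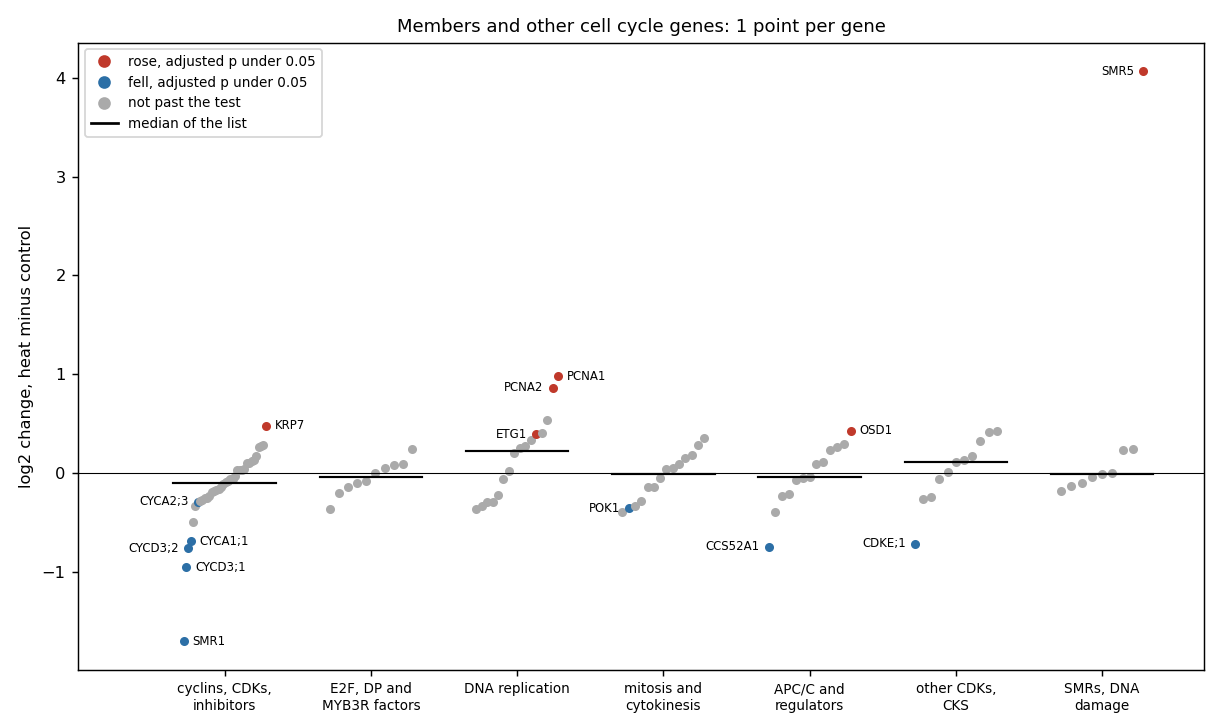
Log2 change after heat (vertical axis) for the 36 measured cyclin, CDK and inhibitor genes and for 6 lists of other cell cycle genes, 1 point per gene in rank order, with a line at each list's median; coloured points passed the test and are named. SMR5 is the highest point at 4.07 and SMR1 the lowest at -1.70.

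Markers of the cells that divide were set beside these values. Of 8 meristem genes, 3 had an unadjusted p under 0.05 (limma), as had 32.3% of all probe sets. At an adjusted p under 0.05, 2 of the 8 fell and none rose, beside 11.5% and 7.82% of all probe sets. CLV1 (AT1G75820), a receptor kinase that limits the shoot stem cell pool, lay at 5.26 to 5.58 in heat arrays against 7.64 to 8.38 in control arrays, and SCR was the other. With the age covariate neither passed (adjusted p = 0.0636 for CLV1 and 0.0609 for SCR). STM, which maintains the shoot meristem, differed by 0.29 (limma adjusted p = 0.0999), with heat arrays above control arrays. WUS, CLV3, PLT1 and PLT2 lay between 3.23 and 3.71 on all arrays. Of 5 genes of the stomatal lineage 1 fell, beside 11.5% of all probe sets. SDD1 fell by 0.62 (limma adjusted p = 0.0182), a call lost without heat array 1 (adjusted p = 0.0712) or heat array 3 (adjusted p = 0.0662), with its own spread (adjusted p = 0.0812) and with the age covariate (adjusted p = 0.18). TMM differed by -0.58 (limma adjusted p = 0.0645) and FAMA by -0.19 (limma adjusted p = 0.222), without passing. In both, heat arrays lay below control arrays, as in 20.0% of all probe sets. SPCH, which starts the lineage, differed by 0.03 and MUTE by 0.07. The part of these markers in the changes of CYCD3;1, CYCD3;2 and SMR1 was not tested.

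**Figure D5:**
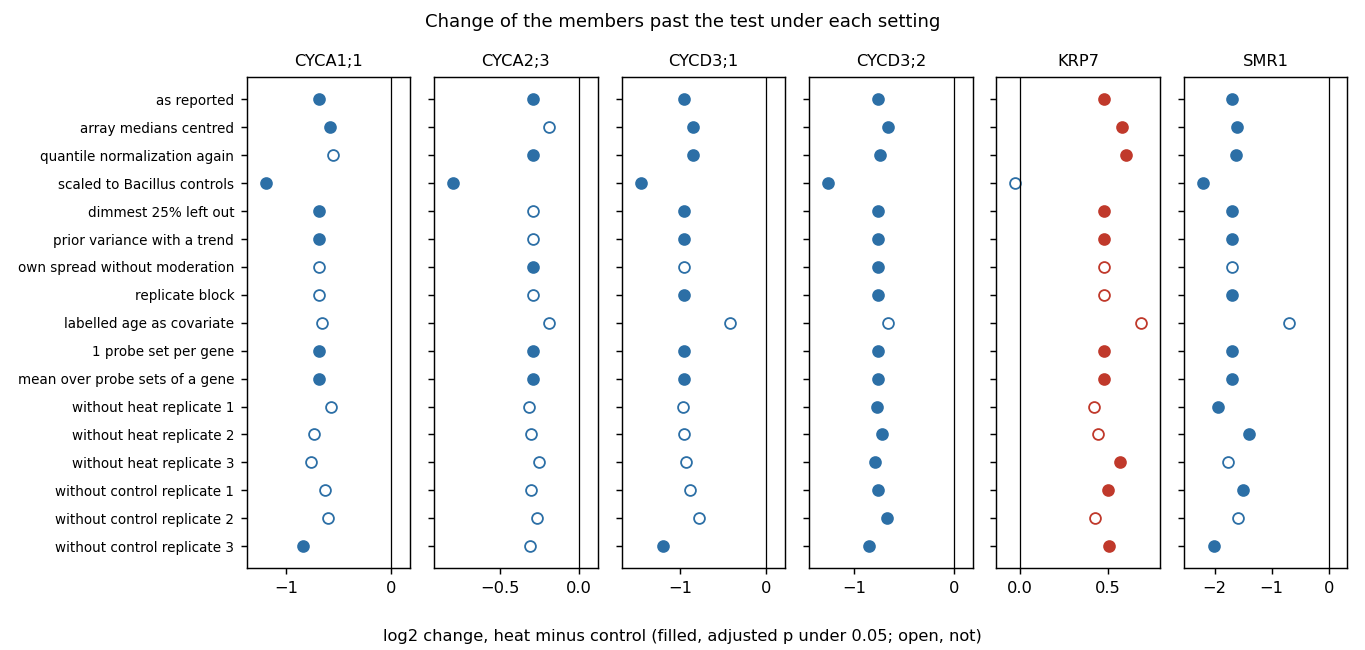
Log2 change (horizontal axis, own scale in each panel) of the 6 genes that passed the test under the reported fit and 16 other settings (rows), filled where the adjusted p was under 0.05. The CYCD3;2 point is filled in all rows but that of the labelled age, and KRP7 lies at -0.03, just left of 0, after scaling to the Bacillus controls.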

How the data were processed

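The deposited log2 levels were made by the authors with RMA, per the submitters' processing notes. RMA subtracts background, equalises the distribution of the arrays and summarises each probe set. Its version is not given in the sources used here, nor is the annotation release. All 136860 levels in the authors' annotated table equal those of the value table. Levels were used as deposited, so a change in total messenger RNA would not show.

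Probe sets were tied to loci through the gene identifiers in the authors' table and the RefSeq gene table of TAIR10.1, which was used for names only. Of 22746 probe sets tested (64 controls left out), 20540 matched 1 locus. The highest-mean probe set stood for a gene.

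The 2 groups were tested in limma 3.58.1 under R 4.3.3 (group only, 4 residual and 2.65 prior degrees of freedom), adjusted over all probe sets, after a check on simulated data. Figures used Python 3.11.15 and matplotlib 3.10.9. Whether samples were grown separately is not stated, so p-values measure the spread between these samples, which may be technical.

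The members, lists and alternatives were chosen with earlier results of these data known. Genes named with their values per array are those past the threshold, and the largest and smallest change of each class among the rest. In the other lists they are up to 4 genes past the threshold, or the largest change where none passed. Of those in the other lists, DPB, POK1, OSD1 and CDKE;1 were given by their change alone. Values per array or ranges of CYCB1;1, CYCD1;1, KRP1, SIM, SMR4, the shared probe sets and the marker genes were added. SOG1 was named for its role, and MCM4, CDT1A, CDC6A and CDC45 for heat arrays below control arrays. No sequence was analysed here.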

Additional observations from a re-analysis of the deposited data

How the results depend on the processing

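Under the reported settings 5 of the 36 genes fell and 1 rose, their median change was -0.10, and 5 other cell cycle genes rose and 3 fell. With the array medians centred, 3 of the 36 rose, their median was 0.00279 and 10 others rose; after a second quantile normalization, 2 and 9 rose. Scaled to the 24 Bacillus control probe sets, which shifted the median of all probe sets to -0.49, 0 of the 36 rose, 23 fell and 4 fell at least 2-fold, with a median of -0.6034, while 1 of the others rose and 33 fell. On that scale 42.5% of all probe sets fell, and the changes of KRP7 (-0.02597), ETG1 (-0.112) and OSD1 (-0.07353) turned negative without passing the test. The median of the 36 genes less that of all probe sets was -0.12 as reported, which centring and the Bacillus scale leave the same by construction, -0.04 after quantile normalization and 0.04 with the age covariate. A variance prior with a trend left 3 of the others rising, beside 7.37% of all probe sets. Without moderation 0 of the 36 rose, 2 fell and 0 fell at least 2-fold, and 3 of the others rose. Over all probe sets 4.27% then rose and 5.18% fell, near the 5.56% of falls among the 36 genes. With the labelled age as a covariate 0 of the 36 rose, 0 fell and 0 fell 2-fold, their median was 0.09748, and 2 of the others rose and 0 fell, beside 1.58% and 0.998% of all probe sets. The cause of these changes was not tested. The replicate numbers did not pair the arrays (correlations of deviations 0.04, 0.19 and -0.08 for numbers 1, 2 and 3), and with the replicate block 0 of the 36 rose, as KRP7 did not pass (adjusted p = 0.053), and 4 fell. CYCA1;1 (0.0645) and CYCA2;3 (0.086) were then not called and CYCD3;3 was (-0.49, adjusted p = 0.026), and 5 of the others rose and 2 fell. With the block 6.72% of all probe sets rose and 9.96% fell. Leaving out 1 array at a time gave 0 to 1 rising and 1 to 4 falling among the 36, 0 to 2 falling 2-fold, a median of -0.143 to -0.04808, and among the others 3 to 7 rising and 2 to 5 falling. Over the same fits 4.55% to 7.8% of all probe sets rose and 6.48% to 12.3% fell. Among the 36 genes the lowest count of falls was 1, without heat array 3. Leaving out the dimmest probe sets kept 32 of the 36 genes. Groups of 3 are too small for the outlier check, and signal over background was not measured for single probe sets.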
